A study of Mus musculus with 18 samples.

Results

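The genes described here are 10 subunits and partners of the corepressor complexes built on the histone demethylase LSD1, the CoREST scaffolds, REST and the Sin3 scaffolds. They were chosen by symbol (Kdm1a, Rcor1, Rcor2, Rcor3, Hdac1, Hdac2, Phf21a, Phf21b, Rest and Sin3b) from the 55335 genes counted, with earlier results of these data known, and all 10 had a row. LSD1 removes methyl groups from the tail of a histone, and CoREST joins it to the deacetylases HDAC1 and HDAC2, so that a bound site loses marks of active chromatin. REST, a zinc finger protein, brings this machinery to neuronal genes in cells that are not neurons, and its loss as progenitors leave the cell cycle is a known step of neurogenesis. MYT1L, the factor mutated in this study, is a zinc finger repressor of neurons that recruits a SIN3B complex.

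RNA was counted in single nuclei of E14 mouse forebrain by combinatorial barcoding (Scale Biosciences), in which fixed nuclei take up barcodes in rounds of splitting and pooling. The mice carried the MYT1L S710fsX allele, a frameshift in Myt1l kept by backcrossing to C57BL/6J mice, and were WT, Het (1 mutant allele) or KO (both alleles mutant), with 3 animals per genotype. The allele is present in every cell from conception, no promoter or Cre restricts it, and the nuclei were not sorted. Each animal was measured in 2 runs, which were summed, so the replicate is the animal, and p-values measure the spread between these 9 animals.

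Of 261143 barcodes, 194202 nuclei were kept, with medians of 2531 UMIs (unique molecules) and 1542 genes, and the UMIs per animal ranged from 43197776 in KO 1 to 73718947 in WT 2. Clustering gave 31 clusters, 7 cell classes had enough nuclei in each animal to be tested, and the members were kept out of the genes used to cluster. Classes were named from marker lists and are written as "-like". Nuclei that could not be named made up 16.18%. In run 1 a genotype tag reads WT for all 9 libraries and so goes against the titles from which groups were taken, and 1866 of the kept barcodes occurred in more than 1 library. All 702 nuclei named diencephalic neuron-like came from Het 1.

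Levels are given as counts per unit of sequencing depth (CPM), the UMIs of a gene scaled to all UMIs summed over its class and animal, and they are compared between classes or animals and not between genes. Myt1l was read first. In excitatory neuron-like nuclei its level was 1910, 2178 and 2085 CPM in WT 1 to 3, 2187, 2408 and 2378 in the 3 Het animals, and 2526, 2747 and 2574 for KO 1 to 3. Every KO animal was above every WT animal, and the count rose by 0.37 on the log2 scale (SE 0.073, edgeR adjusted p = 0.0323). The Myt1l call was lost without WT 1, WT 3, Het 3, KO 1 or KO 2 (adjusted p = 0.136, 0.123, 0.0662, 0.0642 and 0.163), with only the 6 WT and KO animals (0.0665), at resolution 2 (0.0508) and in run 1 alone (0.737). A UMI count reads transcripts of the frameshift allele as it reads normal ones, so it does not check the genotype labels. In radial glia-like nuclei the mean was 74.6 CPM, and the microglia and macrophage-like nuclei, which should lack Myt1l, held 157 CPM on average (range 38.9 to 344), and values at or below that level are read as background.

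The members lie on 9 chromosomes of GRCm38, the assembly also called mm10. Kdm1a, which encodes LSD1, is at chr4:136550540-136602723 on the minus strand, and its end overlaps Luzp1 on the other strand. No source used here states whether counting used strand, and Luzp1 had 134.5 CPM in excitatory neuron-like nuclei, so the Kdm1a count is uncertain by an unknown share. The CoREST genes are Rcor1 (chr12:111039351-111115901, plus), Rcor2 (chr19:7267325-7275225, plus) and Rcor3 (chr1:192098546-192138062, minus). The deacetylases are Hdac1 (chr4:129516104-129542713, minus) and Hdac2 (chr10:36974544-37001889, plus). Phf21a (chr2:92093117-92364666, plus) encodes the LSD1-CoREST subunit also called BHC80, whose PHD finger binds histone H3 tails without methyl marks, and Phf21b (chr15:84785381-84856049, minus) is its paralogue. Rest is at chr5:77265491-77286432 on the plus strand and Sin3b at chr8:72723285-72758201 on the plus strand. Other genes overlapping the members had at most 5.17 CPM.

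Sequence near a gene's start is shown for 3 members whose levels between WT and KO are compared below. RefSeq promoters (GRCm38.p6, 250 bases before to 50 after each start) matched 8 of the 10 members. Rest and Hdac1 had none. Capitals mark AAGTT, the core motif that MYT1L is known to bind, or its reverse complement AACTT. For the Phf21a starts in that table, which lie inside the gene as annotated above and do not show its 5′ end, the 250 bases before each start are printed, at chr2:92185233-92185482 and chr2:92221222-92221471, both on the plus strand. For Rcor1 (chr12:111039387-111039416, plus) and Phf21b (chr15:84855058-84855087, minus) 30 bases around the match are printed. The Phf21b start also lies inside the gene as annotated above and does not show its 5′ end.
Phf21a, start at the first window: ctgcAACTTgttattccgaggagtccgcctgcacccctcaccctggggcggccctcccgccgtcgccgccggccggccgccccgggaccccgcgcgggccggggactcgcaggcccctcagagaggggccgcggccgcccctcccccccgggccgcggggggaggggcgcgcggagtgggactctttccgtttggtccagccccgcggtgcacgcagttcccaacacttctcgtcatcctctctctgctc
Phf21a, start at the second window: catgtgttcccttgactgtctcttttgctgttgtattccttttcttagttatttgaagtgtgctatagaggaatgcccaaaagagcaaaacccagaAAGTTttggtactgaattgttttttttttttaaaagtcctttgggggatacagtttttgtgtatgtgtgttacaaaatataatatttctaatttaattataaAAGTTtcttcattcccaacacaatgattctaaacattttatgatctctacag
Rcor1: ggcgatgagagccaAAGTTgcgctccgttc
Phf21b: ccccggcctgcaAACTTgcacggctcgggg
The Phf21a windows differ in base composition. The first had 70% G and C over its 300 bases and the second 33.33%, beside a median of 52.7% over 32851 promoters. Matches began 246 bases before the first Phf21a start, 154 and 52 bases before the second, 34 bases after the Rcor1 start and 24 bases after the Phf21b start. Sin3b had 3 matches, and Kdm1a, Rcor2, Rcor3 and Hdac2 had none. The motif was searched on both strands and occurred in 39.32% of all promoters of this length, so a match is common and is a description only.

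LSD1 and its scaffolds differed between stages of the excitatory lineage. Kdm1a was highest in excitatory intermediate progenitor-like nuclei (the Eomes and Neurog2 positive stage), where the 9 animals ranged from 372 to 445 CPM with a median of 403. Excitatory neuron-like nuclei followed at 274 to 325 CPM (median 298) and radial glia-like nuclei had 152 to 193 CPM (median 178). No animal of the progenitor stage overlapped the neurons. The size of this step depends on scaling. Per animal the Kdm1a log2 ratio of excitatory neuron-like to these progenitor nuclei was -0.44, and -0.13 with TMM-adjusted library sizes. Over 7578 genes the median log2 ratio without that adjustment was -0.31. Rcor2, the CoREST paralogue known from neural progenitors, had the same top class with a steeper step, at 228 to 284 CPM (median 250) in excitatory intermediate progenitor-like nuclei, 106 to 123 (median 113) in excitatory neuron-like nuclei and 34.2 to 62.2 (median 45.8) in radial glia-like nuclei. Inhibitory progenitor-like nuclei held Rcor2 at 109 CPM on average and inhibitory neuron-like nuclei at 54.4, again with no overlap between these classes.

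The other scaffolds were highest in radial glia-like nuclei among the stages of this lineage. Rcor1, the founding CoREST, ranged from 187 to 216 CPM (median 204) in radial glia-like nuclei, while the excitatory intermediate progenitor-like nuclei had 173 to 216 (median 188), with 126 to 181 (median 146) in excitatory neuron-like nuclei. Its range in each class overlapped that of the next class in the order. Rcor3 was at 47.5 to 68.2 CPM (median 55.1) in radial glia-like and 30.4 to 39.4 (median 36.2) in excitatory neuron-like nuclei. Per animal, Rcor2 was 5.44-fold and Kdm1a 2.30-fold higher in excitatory intermediate progenitor-like than in radial glia-like nuclei in all 9 animals, whereas Rcor3 was 1.56-fold lower in all 9 and Rcor1 lower in 8.

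**Figure D1:**
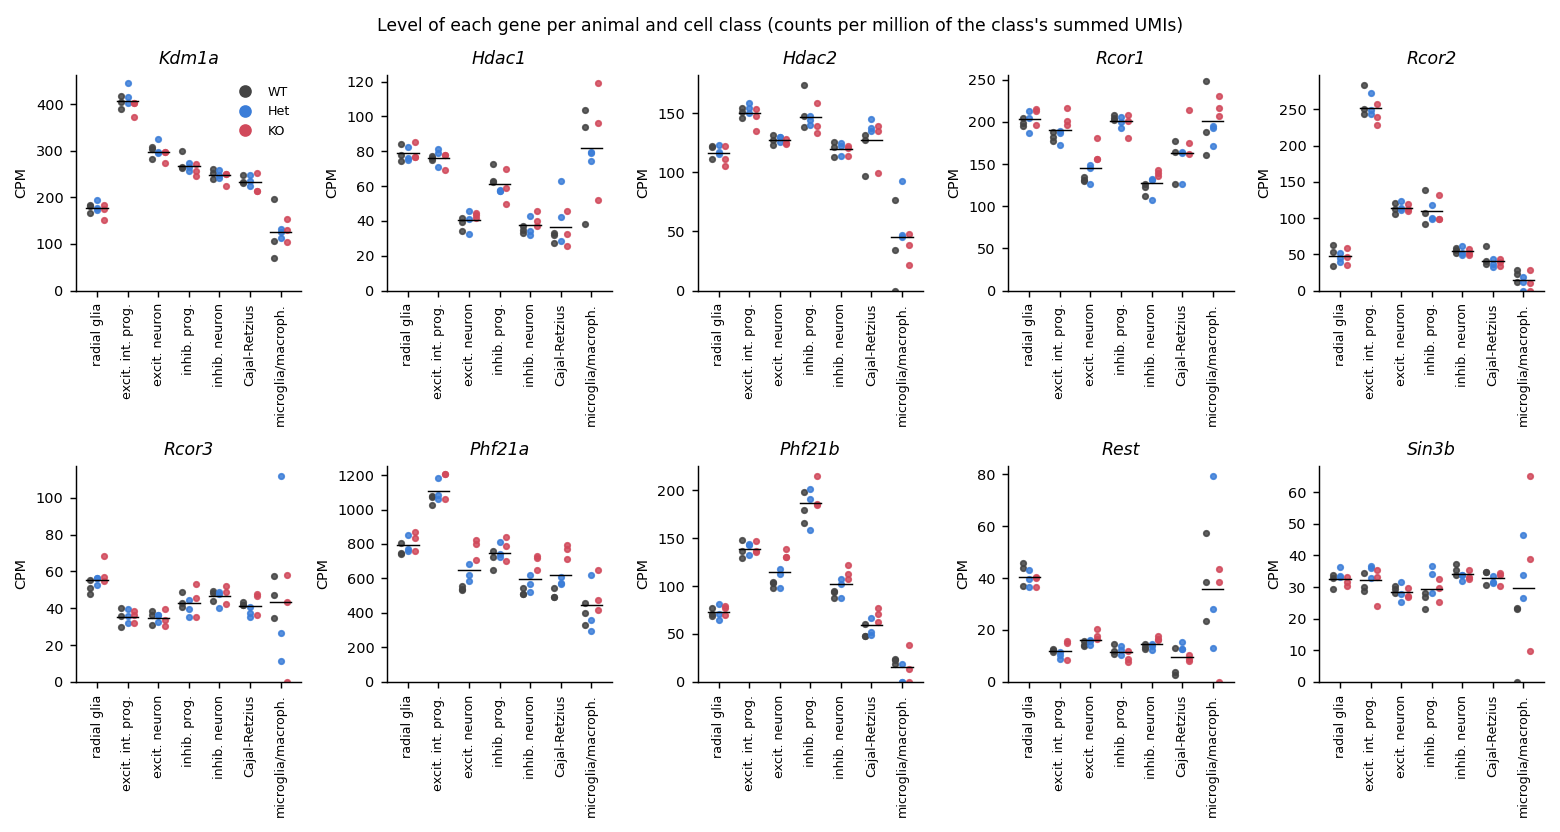
Level of each of the 10 genes in CPM (linear axes from 0) in 7 cell classes, with 1 point per animal coloured by genotype and a line at the mean of the 9 animals. Kdm1a, Rcor2 and Phf21a are highest in excitatory intermediate progenitor-like nuclei (means 406, 252 and 1109 CPM), Phf21b in inhibitory progenitor-like nuclei (187 CPM) and Rest in radial glia-like nuclei (40.3 CPM).

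The deacetylases differed from each other. Hdac1 was at 74.6 to 85.4 CPM (median 76.8) in radial glia-like nuclei, while the excitatory intermediate progenitor-like nuclei had 69.5 to 81.2 (median 77.2), with 32.6 to 45.6 (median 41.5) in excitatory neuron-like nuclei. The neurons did not overlap either progenitor class. Hdac2 stayed within 105 to 123 CPM (median 117) in radial glia-like and 123 to 132 (median 127) in excitatory neuron-like nuclei. Per animal the ratio of excitatory neuron-like to radial glia-like nuclei was -0.97 ± 0.15 (SD, n = 9) on the log2 scale for Hdac1 and 0.13 ± 0.075 for Hdac2. Across clusters Hdac1 ranged from 80.0 CPM in cluster 13, one of the Eomes positive clusters, to 17.5 CPM in cluster 6, inhibitory neuron-like nuclei led by Rarb and Ikzf1.

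The PHD finger subunits peaked in different progenitors. Phf21a was at 1028 to 1208 CPM (median 1080) in excitatory intermediate progenitor-like nuclei, with no overlap with radial glia-like nuclei at 744 to 868 CPM (median 774). Inhibitory progenitor-like nuclei had 646 to 840 CPM (median 742), and excitatory neuron-like nuclei spread from 534 to 821 CPM (median 621). That last spread follows genotype, as given below. Phf21b was highest in inhibitory progenitor-like nuclei, at 158.5 to 215 CPM (median 185), above excitatory intermediate progenitor-like nuclei at 129 to 148 (median 137) with no overlap. Radial glia-like nuclei had 64.9 to 81.3 CPM of Phf21b (median 71.0), and the microglia and macrophage-like nuclei had 15.1 CPM on average.

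Among the 7 tested classes Rest was highest in radial glia-like nuclei, at 36.6 to 45.7 CPM with a median of 39.9. The microglia and macrophage-like nuclei, with 29 Rest UMIs in all, came next at 0 to 79.3 CPM (median 38.3) and overlapped that range. Excitatory intermediate progenitor-like nuclei had 8.52 to 15.7 CPM (median 11.5) and excitatory neuron-like nuclei 13.7 to 20.4 (median 15.6). The Rest transcript was therefore lower at the intermediate progenitor stage than in radial glia-like nuclei in all 9 animals, by 3.47-fold, and in neurons it was 1.37-fold above the intermediate progenitors in all 9. That last step was higher in 7 of 9 animals in run 1 alone and 8 of 9 in run 2 alone, and with clusters at resolution 2 the Rest ratio was 1.05-fold with 7 of 9 higher. The depth behind these values was 3152 Rest UMIs in radial glia-like nuclei, 462 at the intermediate progenitor stage and 2710 in excitatory neuron-like nuclei. Only 66 Rest UMIs came from Cajal-Retzius-like nuclei (the Reln and Trp73 positive neurons of the cortical surface), and the gene did not pass the count filter there. The 9 radial glia markers together were at 143 to 167 CPM in excitatory neuron-like nuclei against 1379 to 1854 CPM in radial glia-like nuclei, and what share of the neuronal Rest signal is free RNA was not tested. Sin3b differed least, with class means from 28.5 CPM in excitatory neuron-like to 34.1 CPM in inhibitory neuron-like nuclei.

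Within the neurons Rest depended on the type. In cluster 20, excitatory neuron-like nuclei led by Tfap2d, the animals ranged from 22.0 to 32.6 CPM of Rest (median 27.4). In cluster 22, led by Itga4, Cxcl12 and Unc5d, they ranged from 3.41 to 9.26 CPM (median 6.04), and in cluster 10, led by Cntn2, from 7.43 to 10.1 CPM, both without overlap with cluster 20. Cluster 22 had the highest mean of Kdm1a among the excitatory neuron-like clusters. It held 411 ± 23.6 CPM of Kdm1a and 234 CPM of Rcor2 on average, near the Eomes positive cluster 19 (421 ± 21.8 and 268 CPM). Cluster 20 held 267 CPM of Kdm1a and 60.7 CPM of Rcor2, and the lowest Kdm1a mean among the excitatory neuron-like clusters was that of cluster 21 (237 CPM).

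Taken as ratios per animal between excitatory neuron-like and radial glia-like nuclei, 4 members were higher in the neurons in all 9 animals (Rcor2 2.47-fold, Kdm1a 1.69-fold, Phf21b 1.56-fold and Hdac2 1.09-fold) and 6 were lower in all 9 (Rest 2.53-fold, Hdac1 1.95-fold, Rcor3 1.58-fold, Rcor1 1.402-fold, Phf21a 1.23-fold and Sin3b 1.15-fold). Over 8053 genes at 20 CPM or more, 23.7% were higher and 52.1% lower in the neurons with no overlap between the classes, which is a stricter criterion. The share of genes by the members' own criterion is not given here. The median log2 ratio over the 8053 genes was -0.35, beside -0.30 for Phf21a and -0.20 for Sin3b. The counts for members depend on scaling. With TMM-adjusted library sizes every ratio of excitatory neuron-like to radial glia-like nuclei moved up by 0.319 on the log2 scale. This turned Phf21a to 0.02 and Sin3b to 0.12, while the other 8 members kept the direction of their mean. The members lower in every animal then numbered 3 instead of 6. Classes were formed from these same nuclei, so all comparisons of levels between classes are descriptions with no test.

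Across 29 clusters with at least 200 nuclei, some members shared a pattern. The likeness measure was Pearson's r of log2(mean CPM + 1) over clusters, which share libraries and depth, and it is given as a description. Rcor2 and Kdm1a were at r = 0.87, and Hdac2 and Phf21b at r = 0.86. Rcor1 and Hdac1, both lower in neurons, were at r = 0.72 with each other and at -0.76 and -0.78 with Myt1l. Among 11317 genes the closest to Kdm1a were Scrt2 (0.93), Smarcc2 (0.91) and Lzts1 (0.91), and those closest to Phf21a were Yeats2 (0.92), Hbp1 (0.91) and Lncppara (0.88). The closest to Rcor1 were Fip1l1 (0.92), Gt(ROSA)26Sor (0.92) and Setd5 (0.91), and to Hdac2 Mex3a (0.94), Slc25a27 (0.93) and 2810410L24Rik (0.92). Rcor2 was closest to A330093E20Rik (0.88) and 2700081O15Rik (0.87) beside Kdm1a, Hdac1 to Zkscan17 (0.93), Lypla1 (0.92) and Dcun1d1 (0.92), and Phf21b to Ptov1 (0.92), Marcksl1 (0.90) and Cacfd1 (0.88). The values were lower for Rest, whose closest genes were Pld2 (0.77), Herc4 (0.75) and B3gntl1 (0.74), for Sin3b (Glod4 0.77, Gm43951 0.68 and Scml4 0.66) and for Rcor3 (Sec24b 0.76, P2ry14 0.72 and Ano1 0.71).

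In small classes, pooled over animals with exact Poisson 95% intervals that cover counting error only, Rest was at 34.2 CPM (23.7 to 47.7) in 342 endothelial-like nuclei and at 4.18 CPM (1.80 to 8.23) in the 702 diencephalic neuron-like nuclei of Het 1. In 189 oligodendrocyte progenitor-like nuclei Rest was at 21.3 CPM (11.4 to 36.5), and in 101 mural and fibroblast-like nuclei, with 13 Rest UMIs, at 50.1 CPM (26.7 to 85.8). Rcor2 was at 24.1 CPM (15.45 to 35.9) in the endothelial-like and 18.1 CPM (9.01 to 32.3) in the oligodendrocyte progenitor-like nuclei. Phf21a reached 764 CPM (661 to 878) in the mural and fibroblast-like nuclei, of which 32 came from Het 1, 1 from Het 2 and 68 from KO 1.

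The comparison of KO with WT asked how the corepressor genes respond when MYT1L is lost. In excitatory neuron-like nuclei Phf21a was at 534, 559 and 537 CPM in WT 1 to 3, 621, 684 and 585 in the 3 Het animals, and 821, 801 and 709 for KO 1 to 3. The genotypes did not overlap, and Het lay between WT and KO. Phf21a rose by 0.54 in KO (log2, SE 0.081, 1.46-fold, edgeR adjusted p = 0.00884). Phf21b was at 104, 98.0 and 103 CPM in WT, 118, 113 and 98.1 in Het, and 139, 131 and 130 in KO. All KO animals were above all WT and Het animals, and Phf21b rose by 0.41 (SE 0.073, 1.33-fold, adjusted p = 0.0212). Both PHD finger genes thus passed the test, 2 of 10 members, where 0.884% of the 19234 genes tested in this class did. The members were chosen with earlier results of these data known, so this share and those given below stand beside the counts as description only. The edgeR fit of genotype alone, with low counts filtered, called no other member in the class.

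Rcor1 and Rest were the next members. Rcor1 was at 132, 130 and 135 CPM in WT, 146, 149 and 126 in Het, and 181, 156 and 156 in KO, with a log2 difference of 0.34 (SE 0.081, edgeR adjusted p = 0.0706). Rest was at 14.1, 13.7 and 15.6 CPM in WT, 15.6, 14.1 and 16.1 in Het, and 17.8, 16.4 and 20.4 in KO, a difference of 0.36 (SE 0.092, adjusted p = 0.0968). For both, every KO animal was above every WT animal. All KO animals were above all WT animals for 4 of the 10 members (Rcor1, Phf21a, Phf21b and Rest), beside 7.57% of all genes tested. The remaining members showed differences between -0.04 and 0.19, with Hdac1 at 0.19 (SE 0.107, adjusted p = 0.502), Rcor2 at 0.03, Hdac2 at 0.01, Rcor3 at -0.0017, Kdm1a at -0.02 (SE 0.064) and Sin3b at -0.04 (SE 0.091). A class sum cannot separate RNA per nucleus from the mixture of nuclei in the class.

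**Figure D2:**
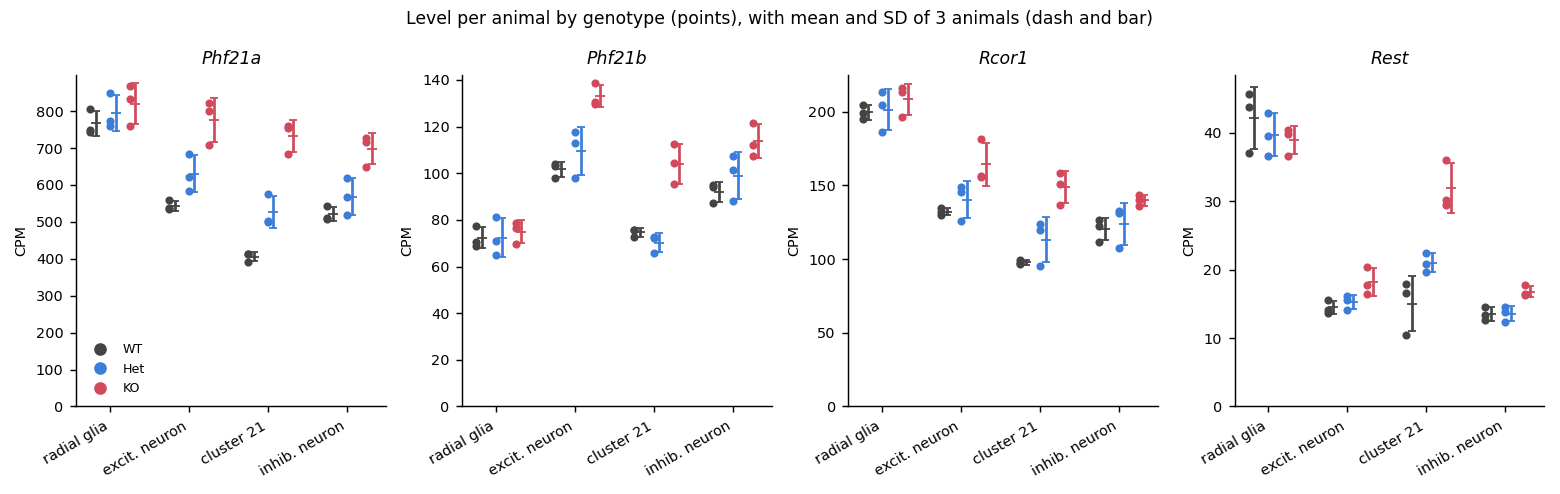
Level of Phf21a, Phf21b, Rcor1 and Rest in CPM (linear axes from 0) in radial glia-like, excitatory neuron-like and inhibitory neuron-like nuclei and in cluster 21, an excitatory neuron-like cluster described further on, with points for the 3 animals of each genotype and a dash and bar for their mean and SD. Phf21a in excitatory neuron-like nuclei lies at 534 to 559 CPM in WT and 709 to 821 CPM in KO, while in radial glia-like nuclei WT and KO overlap.

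Same-numbered animals deviated together in most classes, so the replicate number was also fitted as a block. With it, 4 of 10 members rose in excitatory neuron-like nuclei, namely Phf21a (edgeR adjusted p = 1.19e-06), Phf21b (8.04e-05), Rcor1 (0.00152) and Rest (0.00621), while 6.55% of all genes were called. Kdm1a, Rcor2, Rcor3, Hdac1, Hdac2 and Sin3b were not. DESeq2 without the block called Rcor1 (adjusted p = 0.0183) beside the PHD finger genes and not Rest (0.0895), and edgeR with no filter on low counts also called Rcor1 (0.00111). With 3 animals against 3, calls were lost when 1 animal was left out. Without KO 2 or WT 3 neither PHD finger gene passed (adjusted p = 0.0563 and 0.054 for Phf21a), and Phf21b also failed without KO 1, WT 1 or WT 2 (0.068, 0.066 and 0.0734), with log2 changes of 0.50 to 0.62 for Phf21a and 0.38 to 0.45 for Phf21b throughout. In run 2 alone, where tags and titles match, Phf21a was at 0.56 (adjusted p = 0.00802) and Phf21b at 0.43 (0.024), and in run 1 alone, with fewer nuclei, the changes were 0.47 and 0.32 with no call.

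In inhibitory neuron-like nuclei no member passed the edgeR test of genotype alone with low counts filtered, and 7 of 10 differences were above 0, with Rcor3 (0.04) and Hdac2 (0.02) the nearest to 0 of these. Phf21a was at 509, 544 and 511 CPM in WT, 567, 619 and 519 in Het, and 718, 729 and 650 in KO, a difference of 0.45 (SE 0.089, edgeR adjusted p = 0.347). Phf21b was at 87.2, 95.2 and 94.0 CPM in WT and 107, 122 and 112 in KO, a difference of 0.33 (adjusted p = 0.65). Rcor1 (0.25, adjusted p = 0.858), Rest (0.35, 0.726) and Hdac1 (0.25, 0.908; 0.16 without KO 1 and in run 1 alone) also had unadjusted p-values under 0.05, as did 1012 of the 18390 genes of this class, of which 0.0% passed the adjusted test. All KO animals were above all WT animals for Rcor1, Phf21a, Phf21b and Rest, where 4.12% of all genes showed this. With the replicate block Phf21a (adjusted p = 0.000307) and Phf21b (0.0176) rose, 2 of 10 members beside 0.544% of genes, and Rcor1 (0.0728) and Rest (0.142) did not pass. DESeq2 called Phf21a (0.0156) among 20 genes, and edgeR with no filter on low counts called it among 88. In run 2 alone the Phf21a difference was 0.47 (adjusted p = 0.248 by edgeR).

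In Cajal-Retzius-like nuclei 1 of the 9 members tested was called. Phf21a was at 492, 546 and 490 CPM in WT, 567, 608 and 576 in Het, and 796, 773 and 710 in KO, and it rose by 0.58 (SE 0.0999, edgeR adjusted p = 0.0122), where 0.149% of 8702 genes were called. The genotypes did not overlap and stood in the order WT, Het, KO. The call was lost without WT 1, WT 3 or KO 2 (adjusted p = 0.127, 0.0592 and 0.0723), with a change of at least 0.53 throughout. With run 2 alone the rise was 0.57 (adjusted p = 0.0193). Phf21b differed by 0.45 (adjusted p = 0.462) in these 1983 nuclei.

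**Figure D3:**
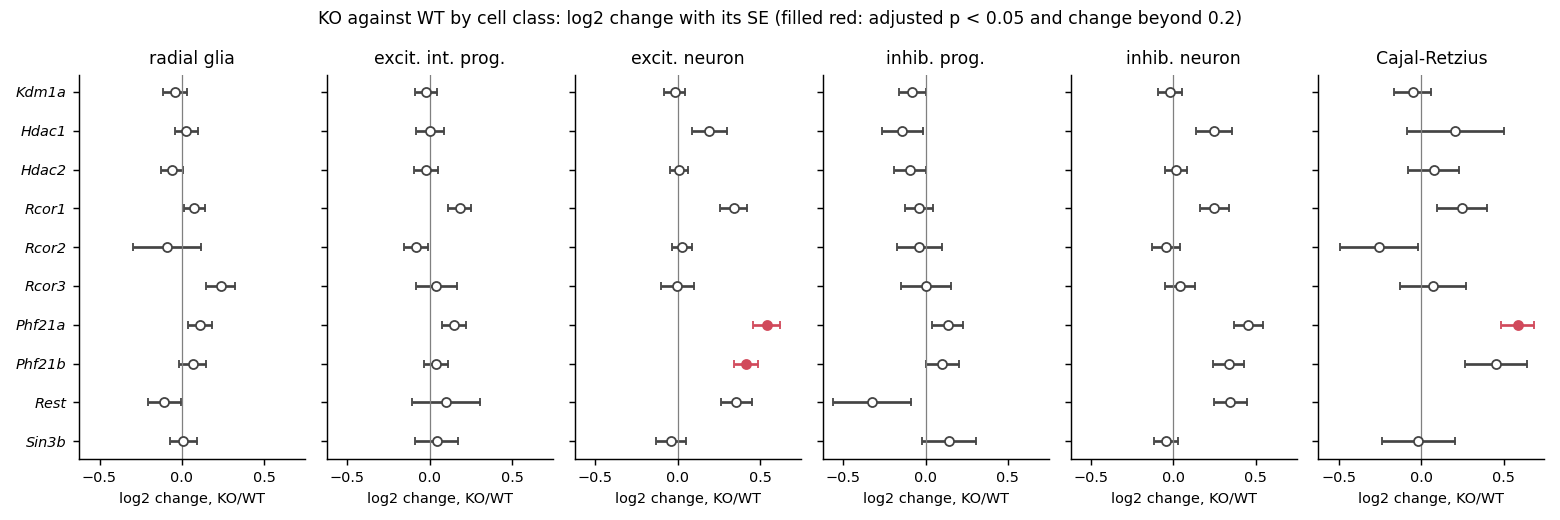
Log2 change of each of the 10 genes in KO against WT in 6 cell classes, from edgeR, with bars of 1 standard error and filled red points where the test was passed. Phf21a lies at 0.54, 0.45 and 0.58 in excitatory neuron-like, inhibitory neuron-like and Cajal-Retzius-like nuclei and at 0.11 to 0.15 in the 3 progenitor classes, and Rest has no point in Cajal-Retzius-like nuclei.

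Progenitors had no call, and the changes of Phf21a, Phf21b and Rcor1 were smaller there than in the neuron classes. Those of Rest and Rcor3 were not smaller in every progenitor class. In excitatory intermediate progenitor-like nuclei every KO animal was above every WT animal for Rcor1 and no other member. The share of all genes showing this was not computed for that class, so nothing about Rcor1 is read from it. In radial glia-like nuclei Phf21a was at 750, 806 and 744 CPM in WT, 774, 850 and 760 in Het, and 868, 833 and 761 in KO, with WT and KO overlapping and a difference of 0.11 (SE 0.075, edgeR adjusted p = 1.00). In excitatory intermediate progenitor-like nuclei it was at 1080, 1074 and 1028 CPM in WT and 1208, 1206 and 1060 in KO, a difference of 0.15 (SE 0.074). In inhibitory progenitor-like nuclei the difference was 0.13 (SE 0.092). Leaving out 1 animal gave Phf21a 0.07 (without KO 1) to 0.17 (without KO 3) in radial glia-like, 0.11 to 0.22 (without KO 3) in the excitatory and 0.07 (without WT 3) to 0.22 (without KO 3) in the inhibitory progenitors. Rest differed by -0.11 (SE 0.101) in radial glia-like nuclei, by 0.10 (SE 0.206; 0.68 in run 1 alone and -0.11 in run 2 alone) for the excitatory intermediate progenitor-like and -0.33 (SE 0.236) in inhibitory progenitor-like nuclei, where 226 Rest UMIs in all limit the precision. Leaving out 1 animal gave Rest -0.20 (without WT 1) to -0.03 (without WT 2) in radial glia-like nuclei, where run 1 alone gave -0.30 and run 2 alone -0.05, and -0.49 (without KO 3) to -0.20 (without WT 3) in the inhibitory progenitors. Called genes made up 0.0% of those tested in each of 4 classes, the microglia and macrophage-like nuclei, the excitatory and the inhibitory progenitor classes and the radial glia-like nuclei, by edgeR and by DESeq2. At an unadjusted p under 0.05 edgeR gave 407 genes in radial glia-like, 600 in the excitatory and 329 in the inhibitory progenitors and 77 in microglia and macrophage-like nuclei, among them 1 member in radial glia-like (Rcor3, 0.24, but 0.14 without KO 1 and 0.05 in run 1 alone) and 1 in excitatory intermediate progenitor-like nuclei (Rcor1, 0.18), and 0 members in the others.

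The difference of the KO change between classes was tested in fits with the animal as a block. The Phf21a change was larger by 0.43 on the log2 scale (SE 0.055, edgeR adjusted p = 0.0147) in excitatory neuron-like than in radial glia-like nuclei, and Phf21a was the only member among the 0.155% of genes called. Rest (0.47, adjusted p = 0.158), Phf21b (0.35, 0.101), Rcor1 (0.26, 0.201) and Rcor3 (-0.23, 0.408) were not called, and in run 1 alone Rcor3 was at 0.06 and Phf21b at 0.13. Between excitatory neuron-like and inhibitory neuron-like nuclei the Phf21a change differed by 0.09 (SE 0.045, adjusted p = 0.828), and no member was among the 0.00999% of genes called by edgeR, with 0 members at an unadjusted p under 0.05. The radial glia difference was lost without WT 2, WT 3 or KO 2 (adjusted p = 0.0695, 0.0786 and 0.0507) and in run 1 alone (0.34, adjusted p = 0.97), and held in run 2 alone (0.47, adjusted p = 0.0111).

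Het animals were compared with the same WT and KO animals, so these contrasts share samples with those above. Against WT no member was called in any class, and 0.0% of all genes were, by edgeR and by DESeq2. At an unadjusted p under 0.05 edgeR gave 2 members, Phf21a in excitatory neuron-like nuclei (0.23, SE 0.081, adjusted p = 1.00; 0.15 without Het 2) and Sin3b in inhibitory progenitor-like nuclei (0.35, SE 0.163). By the same criterion 648 of 19234 genes passed in the first class and 332 of 11998 in the second. Against Het no member was called in KO either, beside 0.012% of genes over the classes and 0 members by DESeq2. In excitatory neuron-like nuclei the unadjusted p was under 0.05 for Phf21a (0.31, adjusted p = 0.374), Phf21b (0.29, 0.358), Rcor1 (0.24, 0.616) and Rest (0.26, 0.638), as it was for 1107 of the 19234 genes. With the replicate block, which the data pair for KO and Het, Phf21a (adjusted p = 0.0029) and Phf21b (0.0115) rose from Het to KO in excitatory neuron-like nuclei, beside 1.26% of genes, and Phf21a (0.0447) in inhibitory neuron-like nuclei, beside 0.0381%.

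By cluster the difference of Phf21a between KO and WT was positive in 25 of 25 clusters tested, from 0.05 to 0.92 with a median of 0.41, and it passed in 8. Over these clusters 0.248% of tests were called. They were the excitatory neuron-like clusters 10, 12, 20 and 21, the inhibitory neuron-like cluster 0, the unnamed clusters 2 and 23, and cluster 25, which is the Cajal-Retzius-like class itself. Phf21b was positive in 24 of 25 and passed in 4 (clusters 0, 12, 20 and 21), Rcor1 in 23 of 25 and passed in 2 (20 and 21), and Rest was positive in 13 of 23 and passed in 1 (21). Hdac1 was positive in 21 of 25, with no call. Kdm1a (6 of 25 positive), Rcor2 (5), Rcor3 (16), Hdac2 (11) and Sin3b (14) had no call in any cluster by edgeR. With the replicate block 1.01% of tests were called, and the clusters with a call numbered 10 for Phf21a, 5 for Phf21b, 5 for Rcor1 (0, 12, 20, 21 and 23), 2 for Rest (12 and 21) and 1 for Hdac1 (21, 0.42, adjusted p = 0.0254). Pairing of replicates was checked in classes and not in clusters, and single animals or a run were left out in classes only.

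Cluster 21 held the most members. Its 9175 nuclei were excitatory neuron-like, led by Hs3st3b1, Rgs6, Dync1i1 and Nfe2l3, and made up 3.93 to 5.72% of nuclei per animal. Phf21a was at 412.5, 413 and 391 CPM in WT, 501, 577 and 501 in Het, and 753, 761 and 684 in KO, and rose by 0.88 (SE 0.086, edgeR adjusted p = 0.000381). Rcor1 was at 99.6, 96.5 and 97.3 CPM in WT, 124, 120 and 95.5 in Het, and 158.5, 151 and 137 in KO, and rose by 0.63 (SE 0.101, adjusted p = 0.00473). In both genes every KO animal was above every other animal. Phf21b was at 75.6, 75.8 and 72.5 CPM in WT, 72.9, 72.2 and 65.8 in Het, and 104, 112.5 and 95.5 in KO, and rose by 0.50 (SE 0.092, adjusted p = 0.0107), with no Het animal above the highest WT animal.

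The change of Rest was largest in cluster 21 among all clusters tested. It was at 10.5, 16.6 and 17.9 CPM in WT, 20.8, 19.7 and 22.5 in Het, and 29.4, 30.2 and 36.1 in KO, so the genotypes did not overlap. It rose by 1.12 (SE 0.172, edgeR adjusted p = 0.00375), on 727 Rest UMIs over the 9 animals. The KO level stayed below that of radial glia-like nuclei in WT, which ranged from 37.0 to 45.7 CPM. The 9 radial glia markers were together at 148 to 155 CPM for WT animals, 147 to 183 for Het animals and 144 to 171 for KO animals of this cluster, with 0 of the 9 above WT in every KO animal, and none was at 0. Of the 10 excitatory neuron markers, 2 were below WT in every KO animal and 0 above. Whether free RNA or the mixture of nuclei contributes to the Rest change was not tested. In this cluster 4 of 10 members were called, beside 2.24% of 12702 genes, and Kdm1a (-0.025), Hdac2 (-0.04), Rcor2 (-0.11), Rcor3 (-0.13), Sin3b (0.05) and Hdac1 (0.40, SE 0.138) were not.

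**Figure D4:**
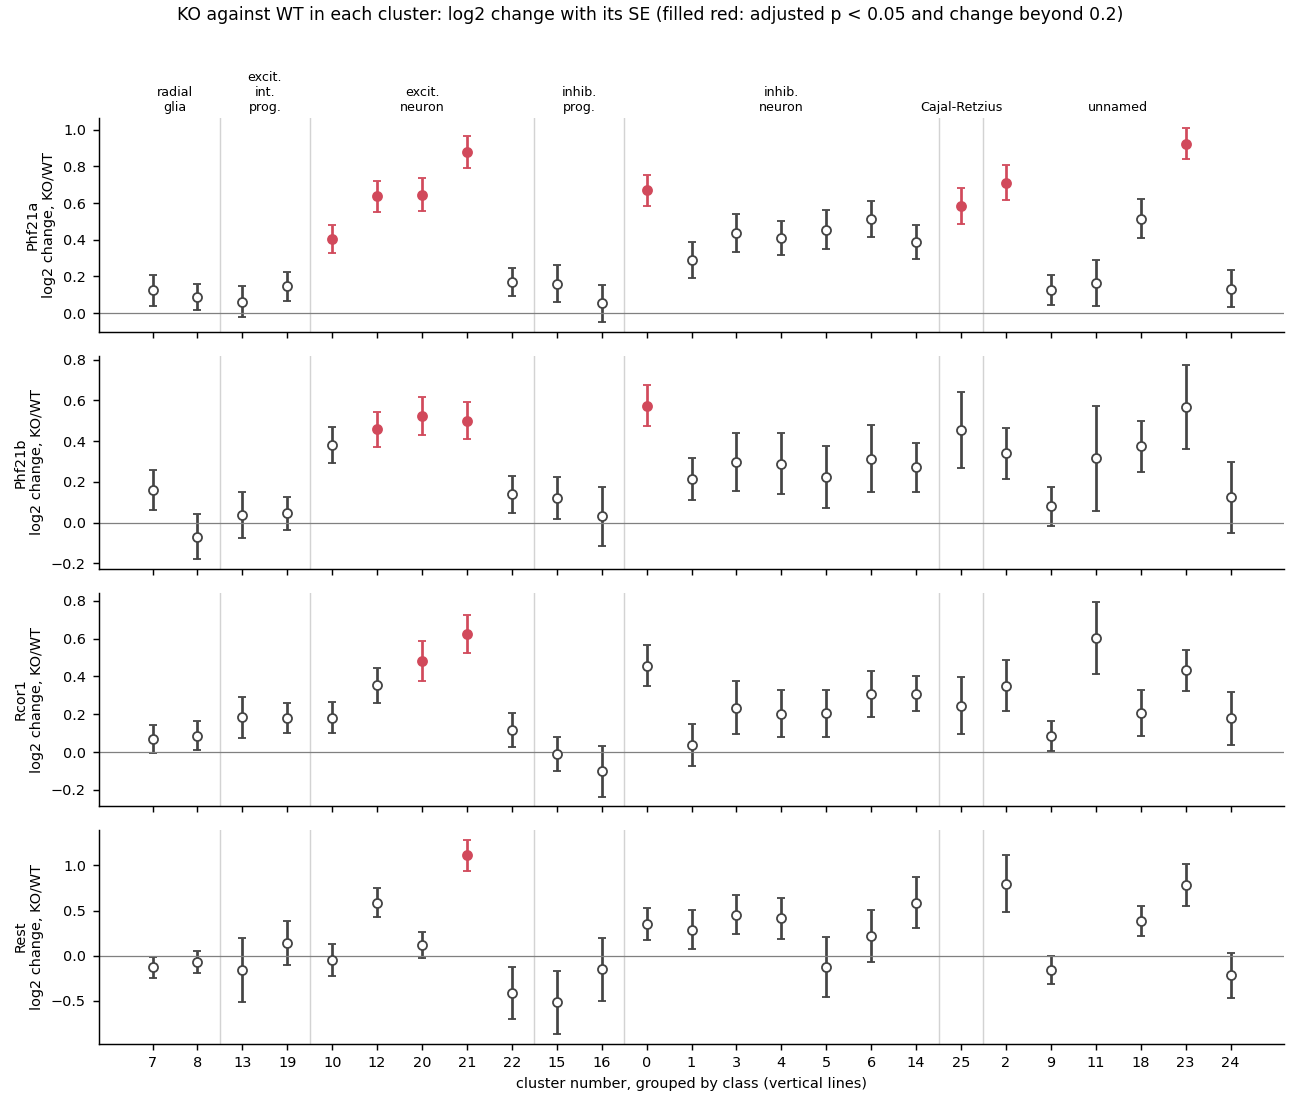
Log2 change in KO against WT of Phf21a, Phf21b, Rcor1 and Rest in each cluster tested, grouped by class, from edgeR, with bars of 1 standard error and filled red points where the test was passed. Phf21a is above 0 in all 25 clusters and reaches 0.92 in cluster 23, while Rest, tested in 23, spans -0.52 to 1.12 with its 1 call in cluster 21.

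Rest was not called in each neuron cluster where Phf21a was. In cluster 20 Phf21a rose by 0.65 (SE 0.089, edgeR adjusted p = 0.00232), Phf21b by 0.52 (adjusted p = 0.0103) and Rcor1 by 0.48 (adjusted p = 0.0347), while Rest was at 30.5, 25.5 and 27.2 CPM in WT and 31.9, 27.4 and 29.2 in KO, a difference of 0.12. Cluster 12, led by Ldb2, showed rises of Phf21a by 0.64 (adjusted p = 0.00104) and Phf21b by 0.46 (adjusted p = 0.0125), and a Rest difference of 0.59 that did not pass without the replicate block (adjusted p = 0.0895) and passed with it (0.60, adjusted p = 0.0255). In cluster 22 Phf21a was at 755, 787 and 771 CPM in WT and 891, 891 and 769 in KO, a difference of 0.17 with no call, and Rest differed by -0.41. Whether the Rest change differs between these clusters was not tested.

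Outside the excitatory neurons, cluster 0 (inhibitory neuron-like, led by Nxph2 and carrying Maf) had Phf21a at 518, 502 and 505 CPM in WT and 833, 784 and 739 in KO, a rise of 0.67 (SE 0.085, edgeR adjusted p = 0.000309). Phf21b rose there by 0.57 (SE 0.101, adjusted p = 0.00596), from 102 to 119 CPM in WT to 158 to 162 in KO. The unnamed cluster 23, led by Car10 and carrying Sim1, had Phf21a at 298, 288 and 298 CPM in WT, 345, 321 and 327.5 in Het, and 591, 552 and 514 in KO. It rose by 0.92 against WT (SE 0.084, adjusted p = 0.000116) and by 0.74 against Het (SE 0.084, adjusted p = 0.00205). Against Het, Phf21a (0.49, adjusted p = 0.0476) and Phf21b (0.57, adjusted p = 0.036) also rose in KO in cluster 21, beside 0.0146% of tests over the clusters, and between Het and WT 0.0% were called without the replicate block. With the block Phf21a was called in 7 clusters in KO against Het and in 1, cluster 21, in Het against WT. DESeq2 called Phf21a in 5 clusters in KO against Het. The share of all tests called in these fits is not given here. Clusters 23 and 21 took 13.3% and 12.3% of their nuclei from run 1.

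Other genes of these complexes were read from lists. In excitatory neuron-like nuclei none of the 11 tested of 15 other LSD1-CoREST subunits and recruiters was called, with 7 positive and a median of 0.04, beside a median of -0.01 and 48.1% positive over all genes. Zmym2, a zinc finger subunit, was at 345, 334 and 341 CPM in WT and 358, 338 and 338 in KO. None of 17 Sin3 complex genes was called (median -0.01), with Arid4b at -0.04 and Kdm5a at 0.00, and none of the 6 NCoR-SMRT genes (median 0.14), with the scaffold Ncor1 at 0.15 (edgeR adjusted p = 0.326) and Tbl1x at 0.17 (adjusted p = 0.301). Among 10 NuRD genes (median -0.0018) the remodeller Chd5 was at 34.6, 31.1 and 30.3 CPM in WT and 21.1, 20.9 and 24.1 in KO, and fell by 0.51 (SE 0.093, adjusted p = 0.0235). The more general NuRD remodellers Chd3 (0.02) and Chd4 (-0.02) were not called. Among 8 other deacetylases (median -0.02) Hdac8 was at 147, 156 and 146 CPM in WT and 198, 198 and 186 in KO, and rose by 0.40 (SE 0.066, adjusted p = 0.0152), while Hdac9 was at 0.37 (adjusted p = 0.205). The Chd5 call was lost without WT 1, WT 2, WT 3, KO 1 or KO 2 (adjusted p = 0.0946, 0.0696, 0.0559, 0.0743 and 0.111), the Hdac8 call without WT 1, WT 3, KO 1 or KO 2 (0.0683, 0.0769, 0.0508 and 0.0785), and both in run 1 alone (0.705 and 0.635).

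Genes around REST were described the same way. The edgeR fit of genotype alone called none of 11 REST cofactors and antagonists (median 0.02). Srrm4, a neuronal splicing factor that turns REST transcripts towards a truncated form, was at 778, 839 and 802.5 CPM in WT and 986, 931 and 912 in KO (0.25, edgeR adjusted p = 0.0963), with no overlap. It was called in 3 of 19 alternatives (DESeq2, no filter on low counts and the replicate block), with adjusted p from 0.00216 to 0.645 over the 19. The methyltransferase gene Ehmt1 was at 0.02. Of 21 tested genes known to carry REST sites 1 was called. Grin1, an NMDA receptor subunit, was at 31.1, 27.7 and 29.5 CPM in WT and 14.9, 13.2 and 19.3 in KO, and fell by 0.87 (SE 0.122, adjusted p = 0.00752), a call lost in run 1 alone (adjusted p = 0.74). The list had 19 of 21 differences below 0 and a median of -0.06, beside 48.12% of all genes above 0 and a median of -0.0084. Radial glia-like nuclei had 15 of 20 below 0 (median -0.16), inhibitory neuron-like 14 of 21 (-0.05), Cajal-Retzius-like 11 of 16 (-0.09), the excitatory intermediate progenitors 12 of 17 (-0.05) and the inhibitory progenitors 10 of 17 (-0.0012), and the list was not compared between classes. In these neurons the AMPA receptor subunit Gria2 was at -0.01 and the vesicle fusion protein Snap25 at 0.20 (adjusted p = 0.219). In inhibitory neuron-like, Cajal-Retzius-like and the progenitor and microglia and macrophage-like classes no gene of any list was called by the edgeR fit of genotype alone.

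With the replicate block more list genes passed in excitatory neuron-like nuclei, beside 6.55% of all genes. Named here after their values were seen, they included Hmg20b (0.41, edgeR adjusted p = 0.00819), Zfp217 (0.36, 0.0145), Ctbp1 (-0.23, 0.0212) and Kdm1b (-0.24, 0.032) among 11 LSD1-CoREST genes, Srrm4 (0.25, 0.00216) among the REST cofactors, and, among the genes with REST sites, Snap25 up and Grin1, Syt4 and Stmn3 down. Of the other deacetylases Hdac8 and Hdac9 rose and Hdac7, Hdac10 and Hdac11 fell, and Chd5 stayed the 1 call among NuRD genes. In inhibitory neuron-like nuclei Hdac8 and Srrm4 passed with the block.

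The lists were also compared between classes. Genes known to carry REST sites were higher in excitatory neuron-like than in radial glia-like nuclei without overlap in 17 of 22 and lower in 0, with a median log2 ratio of 3.13 over the 20 with a value in every animal. Of the 15 with a mean of at least 20 CPM in either class, 15 were higher, but all except Gria2 and Syp reached that level only in the neurons. The minimum thus largely fixed this count in advance, and it is not set against the share over all genes. Srrm4 was at 868 CPM on average in the neurons and 88.7 in radial glia-like nuclei (log2 ratio 3.34), and the REST cofactor Cdyl at 15.9 and 69.2 CPM. Of the LSD1 partners Rreb1 (-3.33), Zfp217 (-1.76) and Hmg20b (-1.71) were lower in the neurons. Among list genes at the same minimum of 20 CPM, 5 of 11 LSD1 partners were lower and 2 higher, beside 52.1% lower and 23.7% higher over the 8053 genes at that level. Sin3 complex genes were lower in 7 and higher in 0 of 12, NCoR-SMRT genes in 3 and 0 of 6, and NuRD genes in 3 and 3 of 10, with Chd5 (1.74) and Chd3 (1.18) higher. Nothing particular to these complexes is read from their counts. In the RefSeq promoters of the genes with REST sites, TTCAGCACC (or its reverse complement), the left part of the REST motif, was found in 4 of 24 promoters (Celsr3, Scg2, Syn1 and Unc13a), beside 0.371% of all promoters. GGACAG (or its reverse complement), the right part, was in 5 of 24 (Bdnf, Gria2, Grin1, Scg2 and Unc13a), beside 22.18% of all promoters. These genes were listed because they are known to carry REST sites, so both shares are a description only.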

How the data were processed

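Nuclei of 9 embryonic forebrains were counted in 2 runs each (18 libraries). The deposited values are expected counts, UMIs per gene and nucleus that need not be whole (6.70 to 8.71% of entries per library were not whole), which the authors made from reads aligned to mm10 with the ScaleRna workflow and its CellFinder step, which removes ambient barcodes. The submitters' processing notes name Seurat 4.3.0, DESeq2 1.38.3 and Scanpy 1.12.0.

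Nuclei were kept within 300 to 3000 genes and 800 to 6000 UMIs, where mitochondrial UMIs did not exceed 1% and log(genes)/log(UMIs) reached 0.9, and the 5% with the highest Scrublet scores were removed. With scanpy 1.11.5, 3000 variable genes without the members, 50 components and 20 neighbours gave Leiden clusters (leidenalg 0.10.2, resolution 1), named from marker lists. The naming rule was adjusted after the clusters were seen. Counts were summed per animal and class, rounded, and tested with edgeR 4.0.16 (quasi-likelihood, R 4.3.3) on genotype, with Benjamini-Hochberg adjustment over all genes of the class. A call needed an adjusted p under 0.05 and a log2 change beyond 0.2. DESeq2 1.42.0 was an alternative. Scripts were tested on simulated data. Named genes are the members and Myt1l, the 3 genes most like each member across clusters of at least 200 nuclei, and from each list up to 3 called genes a direction whose mean reached 20 CPM and the 2 genes with the highest CPM in excitatory neuron-like nuclei. Members and lists were chosen with earlier results of these data known.

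The labels number animals 1 to 3 in each genotype. In excitatory neuron-like nuclei same-numbered WT and KO animals correlated in their deviations at r = 0.119 to 0.265 and different-numbered at -0.176 to 0.024, and the lowest same-number value was over 0.1 in the inhibitory neuron-like and 3 progenitor classes too, so these were treated as paired. It was 0.044 among Cajal-Retzius-like nuclei, with -0.105 for the microglia and macrophage-like class. The study's methods state 3 litters of generally littermate animals but not which number belongs to which litter, so the pairing is taken from the data. Some genes that the naming rule selects are not reported here.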

Additional observations from a re-analysis of the deposited data

Results flagged for a closer look

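The KO change of Phf21a differed between cell classes. It was larger by 0.43 on the log2 scale in excitatory neuron-like than in radial glia-like nuclei (SE 0.055, edgeR adjusted p = 0.0147, from an interaction term with the animal as a block), and every KO animal was above every WT animal in the neurons but not in radial glia-like nuclei. The call was lost without WT 2, WT 3 or KO 2 (adjusted p = 0.0695, 0.0786 and 0.0507) and in run 1 alone (0.97). Between excitatory and inhibitory neuron-like nuclei the Phf21a change differed by 0.09 (adjusted p = 0.828).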

How the results depend on the processing

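With the replicate block, calls in KO against WT went from 170 to 1260 genes and from 2 to 4 members in excitatory neuron-like nuclei, from 0 to 100 genes and 0 to 2 members in inhibitory neuron-like nuclei, and from 13 to 69 genes in Cajal-Retzius-like nuclei. Against Het, it gave 2 members among excitatory neuron-like and 1 among inhibitory neuron-like nuclei where there were 0. Clusters with a call went from 2 to 5 for Rcor1, 0 to 1 for Hdac1 and 1 to 2 for Rest.

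DESeq2 called 339 genes in excitatory neuron-like, 20 genes and 1 member in inhibitory neuron-like, and 31 genes in Cajal-Retzius-like nuclei. No filter on low counts gave 721, 88 and 105 genes, with 1 member in inhibitory neuron-like nuclei and 1 in each neuron class against Het. A fit of only the 6 WT and KO animals gave 98 genes in excitatory neuron-like nuclei. Run 1 alone gave 0 genes and 0 members there, and 0 members for the difference from radial glia-like nuclei. Run 2 alone gave 2 genes in inhibitory neuron-like and 27 in Cajal-Retzius-like nuclei. Without doublet removal 2 genes and at resolution 2 4 genes were called in inhibitory neuron-like nuclei, and without upper limits 54 in Cajal-Retzius-like nuclei. Leaving out 1 animal gave 0 to 2 members and 38 to 276 genes in excitatory neuron-like, 0 to 1 genes in inhibitory neuron-like, and 0 to 1 members and 4 to 34 genes in Cajal-Retzius-like nuclei, and 0 to 1 members for the difference from radial glia-like nuclei.

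Among levels, TMM-adjusted scaling took the members lower in excitatory neuron-like than radial glia-like nuclei from 6 to 3, those higher than in excitatory intermediate progenitor-like nuclei from 1 to 2, and inhibitory neuron-like against progenitor-like nuclei from 0 to 4 higher and 7 to 4 lower. It turned the ratios of Phf21a (0.02) and Sin3b (0.12) to radial glia-like nuclei, of Hdac2 (0.0783), Phf21b (0.0294), Sin3b (0.14) and Rcor3 (0.30) to excitatory intermediate progenitor-like nuclei and of Kdm1a (0.16) between inhibitory neuron-like and progenitor-like nuclei. Resolution 2 gave 4 members lower in excitatory intermediate progenitor-like than radial glia-like nuclei instead of 2. Rest, the 1 member higher in excitatory neuron-like than intermediate progenitor-like nuclei in every animal, was so in fewer than 9 animals at resolution 2 and in each run alone, which left 0 members. For inhibitory neurons over progenitors, WT animals alone gave 1 higher and run 1 alone 4 lower.

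Differences near 0 changed sign. In excitatory neuron-like nuclei these were Rcor2 (-0.0068 at resolution 2), Rcor3 (0.10 in run 1 alone, 0.005011 without doublet removal, 0.016 without upper limits, 0.00275 at resolution 2), Hdac2 (-0.0769 in run 1 alone) and Sin3b (0.02 in run 1 alone, 0.006187 at resolution 2). In inhibitory neuron-like nuclei run 1 alone gave Rcor2 0.0552, Rcor3 -0.0245 and Hdac2 -0.0415, and in excitatory intermediate progenitor-like nuclei run 1 alone gave Rest 0.68 and run 2 alone -0.11. For the difference from radial glia-like nuclei, run 1 alone turned Rcor3 (0.06), Hdac2 (-0.05) and Sin3b (0.00643), and leaving out WT 1 or KO 2 turned Kdm1a (-0.0335 and -0.0701) and Rcor2 (-0.0171 and -0.0383). Leaving out 1 animal spanned 0 for Kdm1a (-0.0684 to 0.0185), Rcor2 (-0.00285 to 0.0627), Rcor3 (-0.11 to 0.0695) and Hdac2 (-0.0205 to 0.0328) in excitatory neuron-like nuclei, Kdm1a (-0.0643 to 0.0256), Rcor3 (-0.0268 to 0.11) and Hdac2 (-0.00968 to 0.0497) in inhibitory neuron-like nuclei, Rest in excitatory intermediate progenitor-like nuclei (-0.0733 to 0.35) and Rcor1 in inhibitory progenitor-like nuclei (-0.10 to 0.00632). The causes were not tested. Rest had 226 UMIs in inhibitory progenitor-like and 66 in Cajal-Retzius-like nuclei.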
